A study of Mus musculus with 48 samples.

Results

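The genes described here are the annotated microRNA genes of the mouse amygdala table, taken as every gene whose symbol starts with Mir and a digit or with Mirlet7, without host genes whose symbol ends in hg, and with a value above 0 in at least 8 of the 48 libraries. Of 1179 such symbols in a table of 52636 genes, 568 met the rule, 280 were above 0 in 1 to 7 libraries and 331 were listed at 0 in all of them. One further gene of this kind is not reported here. The members were thus chosen by their measured values in these same libraries, and their detection is a description, not a result. The values are TPM, in which the reads on a gene are divided by its length and scaled to a fixed library total, so that a few reads on a short gene give a large value. The 568 genes were 43 to 141 bases long, with a median of 77 bases, against a median of 1308 exon bases over all annotated genes, and the number of reads behind each value was unknown.

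RNA was sequenced from amygdala punches of 48 female mice aged 8 to 11 weeks, 8 in each of 6 groups. The strain label of every sample, wild types included, is C57BL/6NTac-Brd1. Wild-type (WT) mice and *Brd1*+/- mice, which carry a heterozygous deletion of loxP-flanked *Brd1* exons in all tissues, each received saline vehicle, imipramine at 10 mg/kg (IMN) or, in the last pair of groups, 5 mg/kg of fluoxetine (FLX). *Brd1* encodes a bromodomain scaffold protein of histone acetyltransferase complexes, imipramine is a tricyclic antidepressant and fluoxetine a selective serotonin reuptake inhibitor. All mice, controls included, had been injected and behaviourally tested before sacrifice. The comparisons asked whether genotype, each drug within a genotype, or the drug effect between genotypes (interaction) altered the microRNA genes. The labels number the replicates 1 to 8 within a group, and the p-values measure the spread between these samples. Sample codes of vehicle and of drug-treated mice fell into separate ranges, so a drug effect cannot be told apart from whatever those ranges stand for. Among drug-treated mice the highest codes were all of WT mice. Genotype differences within a drug are therefore partly mixed with the codes as well.

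A microRNA gene is transcribed as a long primary transcript, often as part of the intron or exon of a host gene. Drosha and Dgcr8 cut a hairpin out of it in the nucleus, and Dicer1 trims the hairpin in the cytoplasm to the mature microRNA that Argonaute proteins carry to target messenger RNAs, which are recognised mainly through the seed, bases 2 to 8. In brain, microRNAs are known for roles in neuronal differentiation and synaptic plasticity, and the imprinted Dlk1-Dio3 region on chromosome 12 holds one of the largest microRNA clusters of the mammalian genome. The libraries were made with a standard RNA kit and read as single 50-base fragments, so the values stand for RNA over the hairpin and its surroundings, such as primary or host transcripts, and the mature microRNAs were not measured.

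Of the 568 genes, 519 matched an entry in RefSeq (GRCm38.p6) by symbol. The mature sequences of the genes that passed a test in a comparison and have an entry here are printed from 5′ to 3′ with the seed in capitals, together with *Mir376b* and *Mir381*, neighbours of *Mir376c* and *Mir300* shown for comparison of seeds. The first lines are from the chromosome 12 stretch described later and the last ones from chromosomes 9 and 7.
mmu-miR-667-5p: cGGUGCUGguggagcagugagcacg
mmu-miR-667-3p: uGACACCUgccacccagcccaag
mmu-miR-376c-5p: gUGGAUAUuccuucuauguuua
mmu-miR-376b-5p: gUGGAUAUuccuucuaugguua
mmu-miR-300-5p: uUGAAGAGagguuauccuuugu
mmu-miR-300-3p: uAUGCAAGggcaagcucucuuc
mmu-miR-381-3p: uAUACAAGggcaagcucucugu
mmu-miR-494-5p: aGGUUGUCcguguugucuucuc
mmu-miR-494-3p: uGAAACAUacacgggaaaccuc
mmu-miR-6236: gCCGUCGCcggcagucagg
mmu-miR-1963: uGGGACGAgaucaugaggccuuc

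The seed of miR-376c-5p was identical to that of miR-376b-5p. Over the matched members, 875 mature sequences held 763 different seeds, and 85 seeds were shared by more than 1 gene, led by the GAGGUAG seed of 7 Mirlet7 genes. The hairpins show how little sequence a value rests on. *Mir667* (chr12:109720006-109720097, plus strand, GRCm38) spans 92 bases and *Mir1963* (chr7:29083636-29083694, minus strand) 59, printed here with the mature parts in capitals.
Mir667: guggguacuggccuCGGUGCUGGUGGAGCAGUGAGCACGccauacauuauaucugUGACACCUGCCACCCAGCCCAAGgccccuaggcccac
Mir1963: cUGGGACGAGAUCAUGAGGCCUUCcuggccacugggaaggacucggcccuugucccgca

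The libraries were first checked against their labels. *Brd1* lay at 26.5 to 41.0 TPM in WT vehicle and at 21.8 to 30.6 TPM in *Brd1*+/- vehicle libraries (log2 −0.45, SE 0.10, limma adjusted p = 0.0512), and its difference was −0.68 (limma adjusted p = 0.102) in IMN and −0.49 (limma adjusted p = 0.0362) in FLX mice. All 10 amygdala neuron markers were above 0 in every group, with a summed level of 1281 to 4739 TPM per library. Markers of neighbouring tissue varied widely within groups, those of choroid plexus from 5.82 to 29289 TPM and those of oligodendrocytes from 544 to 15310 TPM, and no marker gene of any list passed limma's test in any comparison, although up to 5 of 5 oligodendrocyte markers stood at an unadjusted p under 0.05 in a comparison. *Brd1*+/- vehicle libraries held the most genes above 0, 25387 to 27252, against 24335 to 25611 in WT vehicle libraries and 23420 to 26549 in the other groups.

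Most of the 568 genes were sparse. Of them, 193 had a median of 0 TPM, 235 a median of at least 1 TPM and 22 a median of at least 10 TPM. Position in the genome went with detection: 93 genes in an exon of a host gene on the same strand were above 0 in every library, where 22 of that position had a median of 0, against 42 of the 324 in an intron, where 119 had a median of 0, and 10 of the 89 in no gene of that strand, where 52 had a median of 0. The median of the median TPM was 0.944 for exonic, 0.396 for intronic and 0 for the other genes. Protein-coding genes hosted 397 of the 568, and 5 genes of the set are annotated not as microRNA but as small nucleolar or Cajal body RNA.

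**Figure D1:**
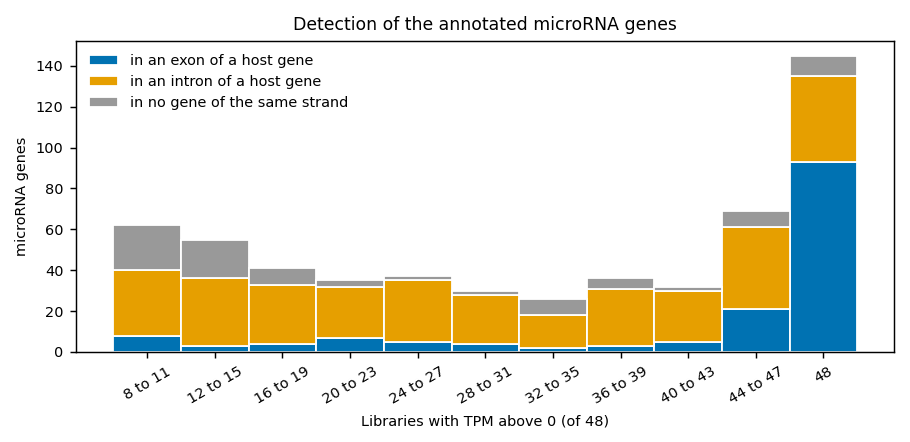
Number of microRNA genes (vertical axis) by the number of libraries, of 48, in which their TPM was above 0 (horizontal axis), with bars stacked by position in an exon, in an intron or in no gene of the same strand. The bar at 48 libraries holds 93 exonic, 42 intronic and 10 other genes.

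At the edge of the rule, 8 genes were above 0 in exactly 8 libraries and 14 in exactly 7. Among the first were *Mir155*, known for roles in immune cells, with a highest value of 4.66 TPM, and *Mir6964*, with a highest value of 0.139 TPM. Among the second were *Mir9-1* and *Mirlet7e*, with highest values of 6.40 and 4.33 TPM, which are thus outside the set although both belong to well-known brain families. The median of the highest value was 1.94 TPM just inside the rule and 2.47 TPM just outside it.

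The members summed to a median of 2154 TPM per library (1553 to 2588), of which *Mir8114*, *Mir5125* and *Mir6236* together made up a median of 37.7% (29.3 to 56.7%). The 10 highest medians belonged to *Mir8114* (555 TPM), *Mir5125* (166 TPM), *Mir6236* (76.1 TPM), *Mir703* (50.4 TPM), *Mir7052* (41.6 TPM), *Mir186* (32.2 TPM), *Mir6958* (26.6 TPM), *Mir374b* (23.7 TPM), *Mir3072* (20.8 TPM) and *Mir421* (20.5 TPM). *Mir8114* overlaps *Glul*, the glutamine synthetase gene of astrocytes, and shares 44 of its 62 runs of 50 bases with *Glul* transcripts. *Mir5125* lies in an intron of *Srrm2* (splicing factor), *Mir186* in an intron of *Zranb2* (splicing factor), *Mir7052* in an intron of *Josd2* (deubiquitinase) and *Mir6958* in an intron of *Dennd6b*. *Mir374b* and *Mir421* lie in introns of *Ftx*, a noncoding gene of the X-inactivation centre, and *Mir3072* in an intron of *Mirg*. *Mir374b* also lies opposite *Mir374c*, and without strand in the counting their reads could not be told apart.

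Within this group most levels were close between the 6 groups, whose means lay between 152 and 184 TPM for *Mir5125*, between 45.2 and 55.2 TPM for *Mir703* and between 30.1 and 36.0 TPM for *Mir186*. Neither *Mir5125*, *Mir703* nor *Mir186* passed a test. *Mir3072* was the most uneven of them, from 0.417 to 52.2 TPM among the 8 WT vehicle libraries alone. Host levels were mostly far above those of the members: the median host level was 30.04 TPM for exonic and 44.1 TPM for intronic members, and only 2 of 152 exonic and 5 of 322 intronic members with a measured host exceeded it. Across genes, the Spearman correlation of member and host medians was 0.46 for exonic and 0.35 for intronic members. These points share libraries, hosts and their read assignment, and genes are not independent replicates.

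The families best known in neurons were present at low levels. Of 41 genes of 15 families in the table, 27 were members. The highest medians were those of *Mir212* (4.86 TPM) and *Mir132* (4.21 TPM), activity-regulated genes that lie side by side in an intron of *1700016P03Rik*, followed by *Mirlet7b* (3.97 TPM), *Mir219a-2* (3.33 TPM), of a family known in oligodendrocytes, and *Mir29c* (2.99 TPM). Chosen after their values were seen, *Mir124a-1* and *Mir9-2*, from families that promote and maintain neuronal identity, had medians of 0.898 and 1.04 TPM and were above 0 in 48 and 47 libraries. *Mir134*, a dendritic regulator of spine size, was above 0 in 47 libraries with a median of 0.948 TPM. None of the 27 passed limma's test in any of the 9 comparisons, in which 19 to 25 of them could be tested, and 13 of 189 tests (6.88%) gave an unadjusted p under 0.05, within the 3.58 to 16.8% of all genes by comparison. The smallest unadjusted values were those of *Mirlet7f-1* in *Brd1*+/- FLX against *Brd1*+/- vehicle mice (log2 −2.83, limma adjusted p = 0.129) and of *Mir125a* in *Brd1*+/- against WT vehicle mice (log2 −1.69, limma adjusted p = 0.187).

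The genotype comparison in vehicle mice gave the most calls. In *Brd1*+/- against WT vehicle mice, all but 187 of the 568 genes had enough signal to be tested, that is, at least 0.1 TPM in at least 8 of the libraries compared. In it, 4 genes were higher at a limma adjusted p under 0.05 and none lower: *Mir667*, *Mir6236*, *Mir376c* and *Mir300*. Over all genes tested, 0.688% were called higher. An unadjusted p under 0.05 was reached by 33 members (8.66%, 26 higher and 7 lower), close to the 8.52% of all genes, and the median log2 difference was 0.03 for members and 0.03 for all genes.

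*Mir667* lies in the Dlk1-Dio3 region and belongs to its cluster of maternally expressed microRNAs. It was listed at 0 in all 8 WT vehicle libraries and read 4.38, 0.774, 0.361, 1.38, 3.24, 1.17, 1.98 and 0.426 TPM in *Brd1*+/- vehicle replicates 1 to 8. The groups did not overlap (limma adjusted p = 8.79e-05), and no fold is given against a group at 0. The gene was above 0 in 7 libraries outside *Brd1*+/- vehicle mice, so it met both the rule of 8 libraries and the filter of this test only through the group where it was high, and the p-value is not independent of that choice. It was above 0 in 1 of 8 WT IMN, 1 of 8 WT FLX, 2 of 8 *Brd1*+/- IMN and 3 of 8 *Brd1*+/- FLX libraries.

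*Mir376c*, of a family with several copies in that cluster, was above 0 in replicates 1 and 5 of WT vehicle mice, at 0.738 and 0.838 TPM. It read 0.640, 2.24, 0.562, 7.61, 1.45, 3.70, 1.90 and 0.828 TPM in the 8 *Brd1*+/- vehicle libraries (log2(TPM + 0.1) difference 3.36, SE 0.64, limma adjusted p = 0.0139). The call was lost with a pseudocount of 1 (adjusted p = 0.0732, limma). Like *Mir667*, it was above 0 in 7 libraries outside this group and was included through it. The highest WT library was above 3 of the *Brd1*+/- libraries, so the groups overlapped. It was listed at 0 in all 8 WT IMN libraries.

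*Mir300*, a neighbour of *Mir381*, was above 0 in 2 of 8 WT vehicle libraries, at 0.614 and 1.75 TPM. It was above 0 in all 8 *Brd1*+/- vehicle libraries, from 0.459 to 6.71 TPM with a median of 2.78 TPM (log2 difference 3.70, SE 0.73, limma adjusted p = 0.0188). These groups overlapped too. With 2 WT vehicle libraries above 0, *Mir300* met the filter of this test only through the *Brd1*+/- group. The p-value is not independent of that choice. Without *Brd1*+/- vehicle replicate 4 the difference was 3.48 and no longer passed (limma adjusted p = 0.0508), nor did it with a pseudocount of 1 (limma adjusted p = 0.0718).

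These 3 genes belong to 1 stretch. Between *B830012L14Rik* and *Mirg* in the Dlk1-Dio3 region, 14 members from *Mir1197* to *Mir544* (chr12:109712317-109729402, GRCm38, 17.1 kb) lie in no annotated gene of their strand. The stretch was marked out after its values were seen, and 10 of its 14 genes, *Mir667* and *Mir376c* among them, would have missed the rule of 8 libraries without the *Brd1*+/- vehicle group. The high detection in that group is therefore built into the choice of genes, and the following counts are a description only. In *Brd1*+/- vehicle mice, 89 of the 112 values of the 14 genes were above 0 (79.5%). The count was 25 in WT vehicle (22.3%), 26 in WT IMN (23.2%), 11 in WT FLX (9.82%), 18 in *Brd1*+/- IMN (16.1%) and 16 in *Brd1*+/- FLX mice (14.3%).

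Each *Brd1*+/- vehicle library held 8 to 13 of the 14 genes, whereas WT vehicle libraries held 1 to 4 and those of the other groups 0 to 8. With the annotated microRNA genes of the stretch that missed the rule added, 19 genes in all, the range was 10 to 15 per *Brd1*+/- vehicle library and 1 to 4 per WT vehicle library. Elsewhere, 189 members were likewise sparse, above 0 in 8 to 24 libraries. Of their values above 0, 20.7% were in *Brd1*+/- vehicle mice, the largest share, against 14.2 to 17.5% in each other group. For the 14 genes of the stretch that share was 48.1%.

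Gene by gene, *Mir667*, *Mir376c* and *Mir300* were above 0 in all 8 *Brd1*+/- vehicle libraries. *Mir494*, *Mir679*, *Mir666*, *Mir654* and *Mir544* were above 0 in 7 of them, *Mir1197*, *Mir1193*, *Mir376b* and *Mir381* in 6, and *Mir329* and *Mir543* in 3. *Mir544* reached the highest level, 9.78 TPM, in *Brd1*+/- vehicle mice and was listed at 0 in every *Brd1*+/- IMN and FLX library, as was *Mir654*. *Mir329* was the exception in the stretch, above 0 in 5 of 8 WT IMN libraries.

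**Figure D2:**
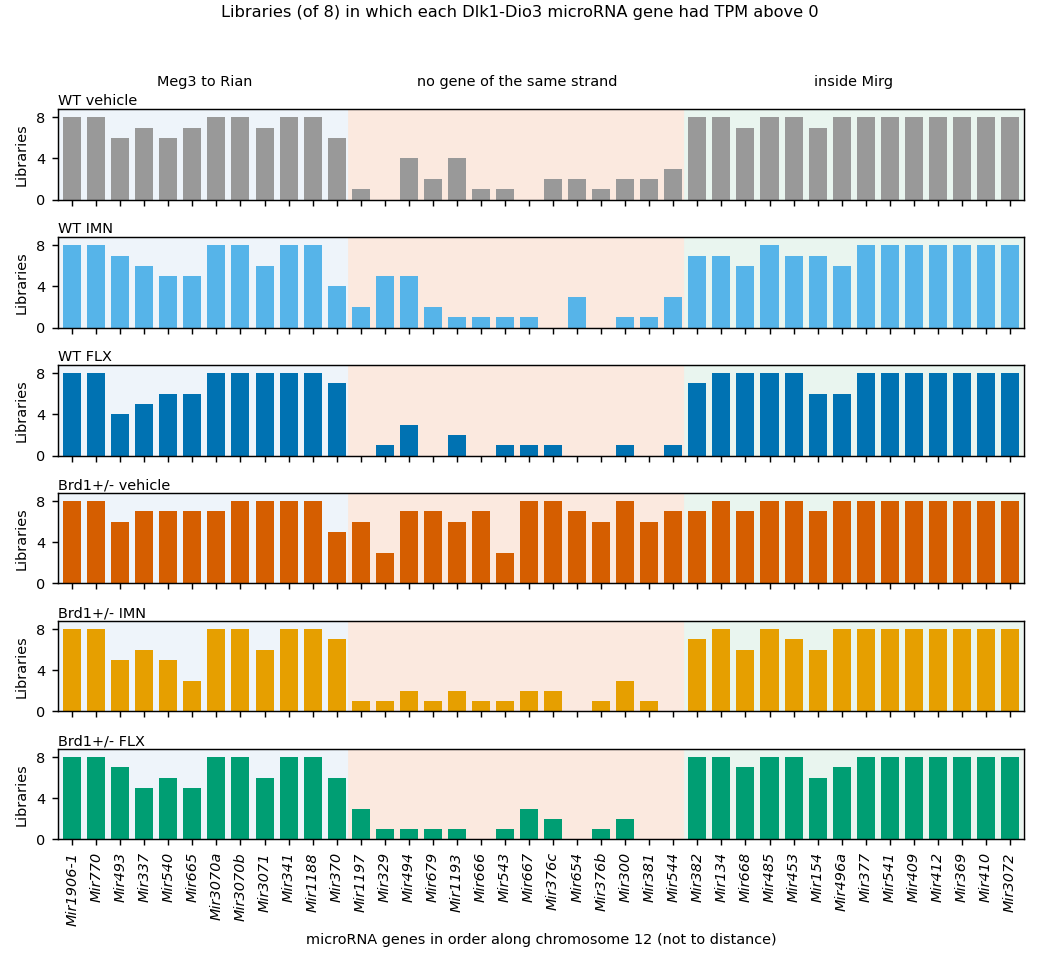
Number of libraries, of 8 in each group (vertical axes, 1 panel per group), in which each of 40 microRNA genes of the Dlk1-Dio3 region had TPM above 0, in their order along the chromosome (horizontal axis). Shading marks the genes from *Meg3* to *Rian*, the 14 genes in no gene of the same strand, and the 14 inside *Mirg*. In the middle block the *Brd1*+/- vehicle bars reach 3 to 8 libraries and no bar of another group exceeds 5.

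In the flanks of the stretch, detection was high in every group, which left little room for a rise to show. The 12 members from *Meg3* to *Rian* had 83.3 to 90.6% of their values above 0 in each group, and the 14 inside *Mirg* 92.9 to 98.2%, with *Brd1*+/- vehicle mice at 90.6 and 97.3%. None of these 26 genes passed limma's test in any comparison, with 0 to 3 per flank and comparison at an unadjusted p under 0.05. Their levels were not alike throughout: in *Brd1*+/- FLX against *Brd1*+/- vehicle mice, 13 of the 14 *Mirg* members had a difference below 0 (median log2 −0.59) and so had 10 of the 12 from *Meg3* to *Rian* (median −0.41). The median was −0.04 over all genes and −0.16 over the 380 microRNA genes tested, 240 of which were below 0. Against WT FLX mice, 13 of 14 and 11 of 12 were below 0 (medians −0.34 and −0.28). There the median was −0.06 over all genes and −0.20 over the 346 microRNA genes tested, 218 of which were below 0. The direction was not particular to FLX. In WT IMN against WT vehicle mice, 12 of 14 and 9 of 12 were below 0 (medians −0.33 and −0.26). In *Brd1*+/- IMN against *Brd1*+/- vehicle mice, 10 of 14 and 7 of 12 were below 0 (medians −0.31 and −0.46). The medians over the microRNA genes tested were −0.02 and −0.04. Between vehicle groups, 7 of 14 and 5 of 12 were below 0. The hosts of these flank genes did not pass either. *Mirg*, a maternally expressed noncoding RNA that carries the microRNAs, had a log2 difference of −0.01 in *Brd1*+/- FLX against *Brd1*+/- vehicle mice (limma adjusted p = 0.998). Against WT FLX mice it was −0.44 (limma adjusted p = 0.112). Between vehicle groups, *Mirg* lay at 78.2 ± 20.6 TPM in WT and 65.6 ± 16.3 TPM in *Brd1*+/- mice (SD of n = 8 per group; a difference on the log2 scale of −0.24, limma adjusted p = 0.811). Between the same vehicle groups the differences were −0.22 for *Rian*, host of small nucleolar RNAs (limma adjusted p = 0.784), and −0.10 for *Meg3* (limma adjusted p = 0.956).

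At the other edge of the stretch, the noncoding gene *B830012L14Rik*, named after its values were seen, followed the stretch. It lay at 0 to 0.172 TPM in WT vehicle and at 0.364 to 2.09 TPM in *Brd1*+/- vehicle libraries, without overlap (log2 2.77, SE 0.33, limma adjusted p = 0.000187). Abundant structural RNAs also differed between these groups. *Rn7s2*, a 7SL RNA of the signal recognition particle, lay at 1.36 to 4.79 TPM in WT vehicle and at 64.1 to 123.6 TPM in *Brd1*+/- vehicle libraries (log2 5.16, limma adjusted p = 2.39e-09), and at 0.955 to 11.1 TPM in the 4 other groups. The sum of 10 such RNAs was 4.91 to 21.1 TPM in WT vehicle and 167 to 319 TPM in *Brd1*+/- vehicle libraries. The summed oligodendrocyte markers had medians of 1650 and 4781 TPM in the same groups. The part of these measures in the higher detection of the stretch was not tested.

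*Mir6236* had the highest level of the members called. It lies in no annotated gene (chr9:110281287-110281409, plus strand, GRCm38, 123 bases). WT vehicle replicates 1 to 8 read 25.2, 53.8, 34.6, 51.3, 57.6, 52.5, 57.7 and 43.7 TPM, and *Brd1*+/- vehicle replicates 137.6, 134.3, 562, 215, 126.2, 163, 137.7 and 150.7 TPM. Every *Brd1*+/- library was above every WT library. The mean rose from 47.1 ± 11.7 to 203 ± 148 TPM (SD of n = 8 per group; a difference on the log2 scale of 1.96, SE 0.27, limma adjusted p = 0.000899). Replicate 3 of the *Brd1*+/- group stood apart, and without it the difference was 1.72 (limma adjusted p = 7.13e-05).

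In the other groups *Mir6236* averaged 56.5 ± 14.7 TPM in WT IMN, 104 ± 41.3 TPM in WT FLX, 120 ± 50.4 TPM in *Brd1*+/- IMN and 86.3 ± 32.8 TPM in *Brd1*+/- FLX mice (SD of n = 8 per group). From low to high the group means ran WT vehicle, WT IMN, *Brd1*+/- FLX, WT FLX, *Brd1*+/- IMN and *Brd1*+/- vehicle. Of the neighbours in that order compared by the design, WT IMN against WT vehicle mice did not pass after adjustment over all genes (log2 0.27, limma adjusted p = 0.970). The same held for *Brd1*+/- FLX against WT FLX mice (log2 −0.26, limma adjusted p = 0.680) and *Brd1*+/- IMN against *Brd1*+/- vehicle mice (log2 −0.66, limma adjusted p = 0.518). A pair of noncoding RNA genes, named after their values were seen, had a like order between genotypes in vehicle mice. *AY036118* averaged 492 ± 140 TPM in WT vehicle and 1399 ± 821 TPM in *Brd1*+/- vehicle mice (SD of n = 8 per group; by limma, an adjusted p of 0.00558), and *CT010467.1* averaged 193 ± 42.1 and 456 ± 231 TPM (SD of n = 8 per group; by limma, an adjusted p of 0.00947). Their highest library was the same as that of *Mir6236*, *Brd1*+/- vehicle replicate 3, at 3374 and 1012 TPM.

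**Figure D3:**
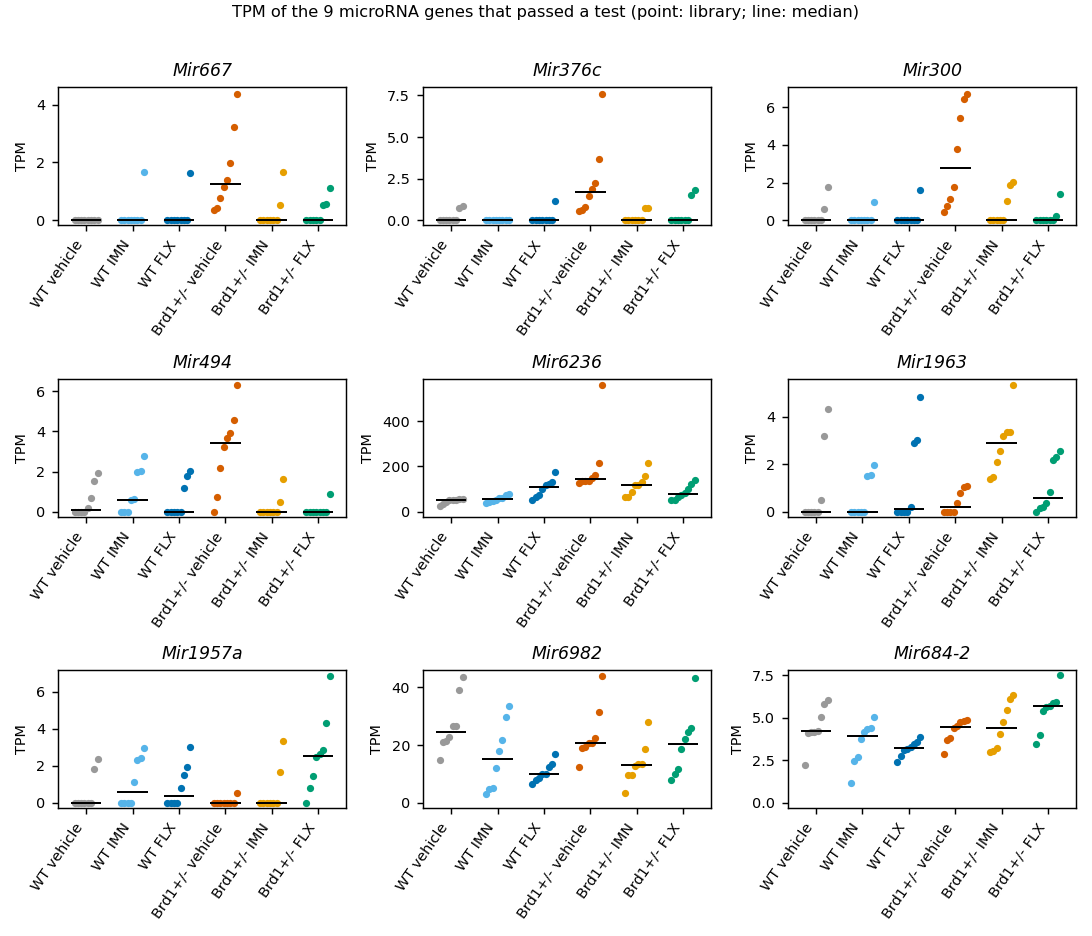
TPM (vertical axes, linear) of the 9 microRNA genes that passed a test in at least 1 comparison, by group (horizontal axes), with 1 point per library and a line at the group median. *Mir667*, *Mir376c*, *Mir300* and *Mir494* are mostly at 0 outside *Brd1*+/- vehicle mice, and *Mir6236* shows 1 library at 562 TPM.

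The drugs were then compared with vehicle within *Brd1*+/- mice. These comparisons share the *Brd1*+/- vehicle libraries with each other and with the genotype comparison above, so their values are set side by side and are not independent. For IMN, 370 members were tested, 1 was lower and 1 higher at a limma adjusted p under 0.05, where 0.776% of all genes were called. At an unadjusted p under 0.05 stood 37 members (10.0%), against 9.30% of all genes. For FLX, 380 members were tested, 2 were lower and 1 higher, where 0.731% of all genes were called, and 34 members stood at an unadjusted p under 0.05 (8.95%, 29 of them lower), against 6.94% of all genes.

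The lower genes were all of the chromosome 12 stretch. They met the filter of these tests only through the *Brd1*+/- vehicle group, where they were high. Their p-values are thus not independent of that choice. *Mir376c* was above 0 in *Brd1*+/- IMN replicates 1 and 8 only, at 0.741 and 0.715 TPM (log2 −3.38, SE 0.62, limma adjusted p = 0.0109), a call that was lost with a pseudocount of 1 (limma adjusted p = 0.0653). It was above 0 in 2 of 8 *Brd1*+/- FLX libraries, where it did not pass (log2 −3.11, limma adjusted p = 0.0778). *Mir300* was above 0 in 2 of 8 *Brd1*+/- FLX libraries, at 0.256 and 1.40 TPM (log2 −3.86, SE 0.67, limma adjusted p = 0.0067). *Mir494* was above 0 in 1 *Brd1*+/- FLX library, at 0.870 TPM, against 0, 3.65, 3.23, 6.31, 4.55, 2.16, 3.94 and 0.754 TPM in *Brd1*+/- vehicle mice (log2 −3.93, SE 0.75, limma adjusted p = 0.0144). *Mir494* had the same direction in *Brd1*+/- IMN mice without passing (log2 −3.51, limma adjusted p = 0.0662). In WT mice it was above 0 in 4 vehicle, 5 IMN and 3 FLX libraries.

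*Mir1963* rose with IMN in *Brd1*+/- mice. It lies in an intron of *Ryr1*, which encodes a ryanodine receptor, a calcium release channel of the endoplasmic reticulum. It read 0, 0.362, 0.784, 0, 1.04, 0, 0 and 1.09 TPM in *Brd1*+/- vehicle replicates 1 to 8 and 2.09, 1.36, 1.44, 3.20, 3.35, 5.33, 2.54 and 3.33 TPM in *Brd1*+/- IMN replicates. The groups did not overlap (log2 3.20, SE 0.61, limma adjusted p = 0.0144), but the call was lost in 4 of 8 other settings, with a limma adjusted p of up to 0.107. With 4 *Brd1*+/- vehicle libraries above 0, *Mir1963* met the filter of this test only through the IMN group, where it was high. The p-value is not independent of that. It was also one of the genes that marked this set, so this value chose it and is given as a description.

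In the other groups *Mir1963* was above 0 in 3 WT vehicle, 3 WT IMN, 4 WT FLX and 8 *Brd1*+/- FLX libraries, with highest values of 4.34, 1.96, 4.81 and 2.57 TPM. The lowest value above 0 was 0.00514 TPM, in a *Brd1*+/- FLX library. Against WT IMN mice the *Brd1*+/- IMN level had a difference of 3.20 that did not pass (SE 0.74, limma adjusted p = 0.585), and the IMN interaction was 3.29 (limma adjusted p = 0.414). *Ryr1* itself lay at 14.7 ± 12.6 TPM in *Brd1*+/- vehicle and 18.0 ± 11.98 TPM in *Brd1*+/- IMN mice (SD of n = 8 per group; a difference on the log2 scale of 0.64, limma adjusted p = 0.886).

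*Mir1957a* rose with FLX in *Brd1*+/- mice. It lies in an intron of *Slc2a1* (chr4:119129779-119129844, plus strand, GRCm38), the glucose transporter of brain endothelium and astrocytes. It was above 0 in replicate 5 alone of *Brd1*+/- vehicle mice, at 0.540 TPM, and read 1.44, 0.809, 2.45, 2.64, 4.29, 6.83, 0 and 2.83 TPM in *Brd1*+/- FLX replicates 1 to 8. The groups overlapped through the FLX library at 0 (log2 3.79, SE 0.70, limma adjusted p = 0.0107). With 1 *Brd1*+/- vehicle library above 0, *Mir1957a* met the filter of this test only through the FLX group, where it was high. It too marked the set, and the value is a description.

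*Mir1957a* was above 0 in 2 WT vehicle, 4 WT IMN, 4 WT FLX and 2 *Brd1*+/- IMN libraries, with highest values of 2.37, 2.98, 3.02 and 3.32 TPM. Neither *Brd1*+/- FLX against WT FLX mice (log2 2.07, limma adjusted p = 0.291) nor the FLX interaction (log2 2.85, limma adjusted p = 0.245) passed. *Slc2a1* lay at 101 ± 19.8 TPM in *Brd1*+/- vehicle and 101 ± 23.9 TPM in *Brd1*+/- FLX mice (SD of n = 8 per group; a difference on the log2 scale of −0.02, limma adjusted p = 0.997).

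In WT mice the drugs gave 1 call. For IMN, 359 members were tested and limma called none, as it called 0.00% of all genes, and 23 members (6.41%) stood at an unadjusted p under 0.05, against 4.58% of all genes. The smallest p-values belonged to *Mir3100*, in an intron of *Dmpk* (log2 −1.57, limma adjusted p = 0.970), and *Mir7051*, in an intron of *Etfb* (log2 −1.97, limma adjusted p = 0.970). For FLX, all but 217 members were tested and *Mir6982* was lower, where 0.0552% of all genes were called lower. An unadjusted p under 0.05 was reached by 28 members (7.98%), against 16.8% of all genes.

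*Mir6982* lies in an intron of *Camk2a*, the calcium/calmodulin-dependent kinase of excitatory forebrain neurons. It read 15.0, 43.5, 22.8, 38.9, 26.5, 21.02, 21.3 and 26.6 TPM in WT vehicle replicates 1 to 8 and 8.70, 6.39, 10.0, 10.1, 13.6, 12.4, 7.77 and 16.8 TPM in WT FLX replicates. Only the highest FLX library was above the lowest vehicle library. The mean fell from 27.0 ± 9.60 to 10.7 ± 3.39 TPM (SD of n = 8 per group; a difference on the log2 scale of −1.31, SE 0.22, limma adjusted p = 0.0251). Leaving out 1 library at a time, the adjusted p was 0.00913 to 0.0738, and the call was lost in 8 of 16 refits and in 2 of 8 other settings.

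The host had a like difference: *Camk2a* averaged 687 ± 261 TPM in WT vehicle and 316 ± 177 TPM in WT FLX mice (SD of n = 8 per group; a difference on the log2 scale of −1.20, SE 0.32, limma adjusted p = 0.0912). In *Brd1*+/- mice the signs differed, since IMN against vehicle gave −0.89 for *Mir6982* (limma adjusted p = 0.367) and 0.30 for *Camk2a* (limma adjusted p = 0.859). *Mir7220*, in the same host and named for that, went from 14.6 ± 6.32 to 6.76 ± 4.74 TPM (SD of n = 8 per group; a difference on the log2 scale of −1.28, limma adjusted p = 0.124). The summed amygdala neuron markers had medians of 3170 TPM in WT vehicle and 2024 TPM in WT FLX libraries, and the summed oligodendrocyte markers 1650 and 4968 TPM. Their part in the result was not tested. In these bulk samples, fewer cells of a type and less RNA per cell cannot be told apart.

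*Mir8114* stood just short of the threshold in the same comparison, at 451 ± 99.1 TPM in WT vehicle and 676 ± 83.9 TPM in WT FLX mice (SD of n = 8 per group; a difference on the log2 scale of 0.61, limma adjusted p = 0.0555). *Glul*, with which it shares exon sequence, had a difference of 0.58 (limma adjusted p = 0.0399). Reads of the overlapping genes cannot be told apart where the sequence is shared.

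**Figure D4:**
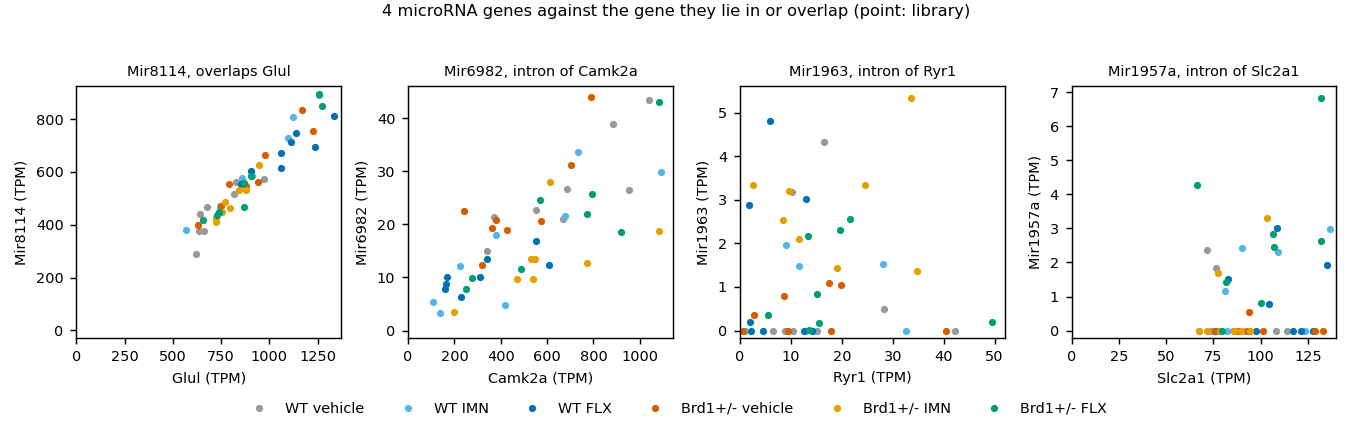
TPM of 4 microRNA genes (vertical axes) against the TPM of the gene they overlap or lie in (horizontal axes), with 1 point per library in the colour of its group. *Mir8114* is high in the libraries where *Glul* is high, *Mir6982* spreads more widely about *Camk2a*, and *Mir1963* and *Mir1957a* are at 0 in many libraries at any level of *Ryr1* and *Slc2a1*.

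Between genotypes in drug-treated mice few members differed. In *Brd1*+/- IMN against WT IMN mice, 339 members were tested and limma called none, where 0.0170% of all genes were called. At an unadjusted p under 0.05 stood 16 members (4.72%), against 3.58% of all genes. The smallest p-values there were those of *Mir6236* (log2 1.02, limma adjusted p = 0.585), at 37.6 to 78.6 TPM in WT IMN and 64.7 to 216 TPM in *Brd1*+/- IMN libraries, and of *Mir1963*. In *Brd1*+/- FLX against WT FLX mice, 346 members were tested and *Mir684-2* was higher, where 0.165% of all genes were called higher. An unadjusted p under 0.05 was reached by 32 members (9.25%), against 16.6% of all genes.

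*Mir684-2* lies in no annotated gene (chr4:11134097-11134182, GRCm38). It read 3.19, 3.60, 3.26, 3.85, 2.41, 3.48, 2.77 and 3.09 TPM in WT FLX replicates 1 to 8 and 5.71, 3.44, 5.63, 5.93, 5.38, 3.97, 7.49 and 5.87 TPM in *Brd1*+/- FLX replicates. A single *Brd1*+/- library lay within the WT range. The mean was 3.21 ± 0.462 in WT FLX and 5.43 ± 1.25 TPM in *Brd1*+/- FLX mice (SD of n = 8 per group; a difference on the log2 scale of 0.72, SE 0.16, limma adjusted p = 0.0362). *Mir684-1*, its copy on chromosome 2, had a difference of 0.63 (limma adjusted p = 0.0651). Leaving out 1 library at a time, the call of *Mir684-2* was lost in 9 of 16 refits, with an adjusted p of 0.02 to 0.0869, and in 4 of 9 other settings.

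The assignment of these reads is uncertain. Of 37 runs of 50 bases in *Mir684-2*, 29 recur in *Mir684-1* and 30 in transcripts of *Sumo2*, the gene of a small ubiquitin-like modifier, which had a difference of 0.29 (limma adjusted p = 0.198). Of the 9 members called in any comparison, *Mir684-2* was the only one that shared such a run with another annotated gene. Runs were compared with transcripts of genes, so this does not show that reads of the other called members are unique in the genome. Over the whole set, 202 of 567 genes of sufficient length shared a run with other transcripts, 179 of them only with genes at the same place and 23 with a gene elsewhere.

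The test of whether a drug effect differed between genotypes drew on 4 groups. An interaction below 0 means that the drug effect was lower in *Brd1*+/- than in WT mice. For FLX, 498 members were tested and *Mir6236* and *Mir667* passed with interactions below 0, where 1.53% of all genes were called below 0. At an unadjusted p under 0.05 stood 47 members (9.44%), against 16.8% of all genes. *Mir6236* had an interaction of −2.21 (SE 0.39, limma adjusted p = 0.00278). Its FLX difference was 1.09 in WT mice (limma adjusted p = 0.0575) and −1.12 in *Brd1*+/- mice (limma adjusted p = 0.125), so neither passed alone.

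*Mir667*, at 0 in WT vehicle mice and in 7 of 8 WT FLX libraries, had a FLX interaction of −3.17 (SE 0.84, limma adjusted p = 0.0462). This value was near the threshold, and leaving out 1 library at a time gave an adjusted p of 0.0217 to 0.0807, with the call lost in 23 of 32 refits. It was also lost in 6 of 8 other settings, with an adjusted p of up to 0.0777 and an interaction from −5.585 to −1.163. WT mice had almost no *Mir667* level to fall from, so the interaction rests on the *Brd1*+/- groups. *Mir667* met the filter of this test only through *Brd1*+/- vehicle mice, where it was high. For IMN, 499 members were tested and limma called none, where 0.536% of all genes were called. An unadjusted p under 0.05 was reached by 39 members (7.82%, 33 below 0), against 9.24% of all genes. The smallest p-values were those of *Mir544* (limma adjusted p = 0.0624) and *Mir667* (limma adjusted p = 0.063), both of the stretch. Both genes met the filter of the IMN test only through *Brd1*+/- vehicle mice, so these p-values are not independent of that choice.

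Genes that make or use microRNAs were compared last. Of 15 genes that cut, export or trim precursors, 14 could be tested and none passed limma's test in any of the 9 comparisons, with 0 to 2 at an unadjusted p under 0.05, where 3.58 to 16.8% of all genes stood by comparison. Among the core enzymes, *Drosha* lay at 49.8 to 90.5 TPM, *Dgcr8* at 7.97 to 15.0 TPM and *Dicer1* at 18.3 to 51.3 TPM over all 48 libraries. Of 12 genes of the silencing complex, 1 passed, in 1 comparison: *Tnrc6a*, a GW182 protein that links Argonaute to deadenylation, was lower in *Brd1*+/- FLX than in WT FLX mice (log2 −0.58, SE 0.11, limma adjusted p = 0.0153). In that comparison 2 of the 12 stood at an unadjusted p under 0.05, against 16.6% of all genes. The summed level of the silencing genes ran from 462 to 735 TPM without separating the groups. Among 14 microRNA host genes, those with symbols ending in hg and *Mirg*, *Rian*, *Meg3* and *Rtl1*, none passed limma's test in any comparison. At an unadjusted p under 0.05 stood 0 to 4 of the 12 to 14 tested, beside 3.58 to 16.8% of all genes by comparison. The smallest p-value was that of *Mir142hg* in *Brd1*+/- against WT vehicle mice (log2 2.13, limma adjusted p = 0.186).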

How the data were processed

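Total RNA from amygdala punches of 48 mice had been sequenced as single 50-base reads on the HiSeq2000 with TruSeq libraries. The authors aligned the reads to GRCm38 (Ensembl release 90) with HISAT2 2.1.0 and deposited TPM values per gene from StringTie 1.3.4; strand use in counting was not given in the sources used here. TPM keeps no depth, so the reads behind a value, and intervals that need them, were not available. Each library summed to 999524 to 999772 TPM.

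Groups followed the labels. Gene symbols, positions and hosts (the same-strand gene that contains the hairpin and has the highest mean TPM) came from GENCODE M21, also GRCm38, in which 52489 of 52636 IDs were found. Genes with at least 0.1 TPM in at least 8 libraries of a fit were tested on log2(TPM + 0.1) with limma 3.58.1 (R 4.3.3, trended prior), with Benjamini-Hochberg adjustment over all genes tested and a threshold of 0.05. On this scale the size of a change of a low gene depends on the pseudocount. Over the other settings given below, the difference of *Mir300* between vehicle groups ran from 1.57 to 6.136. Each comparison was fitted on its own 2 groups, and interactions on 4. The study's own count test (edgeR) needs counts and was not used. The script was tested on simulated data. Tables were made with Python 3.11.15 and pandas 2.3.3.

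Genes were named by a rule: all members called, *Mir1963* and *Mir1957a*, the 10 of highest median, in comparisons with no call the 2 of smallest p, hosts, *Brd1* and up to 3 genes of smallest p per list. Families were taken by symbol, with no further digit after the family name. Members and lists were chosen with earlier results of these data known. Alternatives were other pseudocounts (0.01 and 1), no filter, a filter at 1 TPM, median-ratio scaling, an untrended prior, 1 fit of all libraries, a replicate block, a term for the range of sample codes, and leaving out each library. One gene of the kind described is not reported here.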

Additional observations from a re-analysis of the deposited data

Results flagged for a closer look

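In each set of 8 libraries (a named gene in a group), the gap of the highest or lowest library to its neighbour was divided by the whole range. It exceeded Dixon's critical value in 19 sets, which is 15.6% of those tested. Chance alone flags about 1 in 20 only where values are normally distributed. Many of these sets hold values at 0, so that rate is no measure for them. In 8 of the 19, a single library was above 0, which gives a ratio of 1: *Mir300* in WT IMN and in WT FLX mice, *Mir1957a* in *Brd1*+/- vehicle mice, *Mir494* in *Brd1*+/- FLX mice, *Mir376c* in WT FLX mice, *Mir667* in WT IMN and in WT FLX mice, and *Mir544* in WT FLX mice. Other sets with many values at 0 were *Mir300* in WT vehicle (0.65) and *Brd1*+/- FLX mice (0.817), *Mir494* in *Brd1*+/- IMN mice (0.699) and *Mir667* in *Brd1*+/- IMN mice (0.68). *Mir7051* stood out in WT FLX (0.851), *Brd1*+/- vehicle (0.594) and *Brd1*+/- IMN mice (0.553).

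All 8 libraries were above 0 in 4 sets. *Mir6236* in *Brd1*+/- vehicle mice had a ratio of 0.797, with replicate 3 at 562 TPM and the next library at 215 TPM. *Mir376c* in *Brd1*+/- vehicle mice had 0.554, with replicate 4 at 7.61 TPM and the next at 3.70 TPM. *Mir186* in *Brd1*+/- IMN mice had 0.543, with replicate 7 at 56.8 TPM. *Mir5125* in WT FLX mice had 0.578, with replicate 4 lowest at 138.2 TPM.

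The FLX interaction passed limma's test for *Mir6236* (log2 −2.21) and for *Mir667* (−3.17). For *Mir667* both WT groups were at or near 0, and the call was lost in 23 of 32 refits and in 6 of 8 other settings.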

How the results depend on the processing

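The counts of microRNA genes called by limma moved with the settings, and no direction was reversed under any of them. For *Brd1*+/- against WT vehicle mice the count of 4 became 2 with a pseudocount of 1, 1 with a filter at 1 TPM, 8 in 1 fit of all 48 libraries and 2 with the replicate number as a block. For *Brd1*+/- FLX against WT FLX mice the count of 1 became 3 with a pseudocount of 0.01, and 0 without a filter, with the block and with a term for sample codes. For FLX in WT mice the count of 1 became 3 with a filter at 1 TPM, and 0 in 1 fit and with the block. For IMN in *Brd1*+/- mice the count of 2 became 1 with a pseudocount of 1, 4 without a filter, 0 with a filter at 1 TPM, 6 in 1 fit and 0 with the block. For FLX in *Brd1*+/- mice the count of 3 became 7 without a filter and in 1 fit, and 0 with a filter at 1 TPM. For the IMN interaction the count of 0 became 1 with a pseudocount of 1 and 2 in 1 fit. For the FLX interaction the count of 2 became 1 without a filter, with a filter at 1 TPM, in 1 fit, with the block and with the term for sample codes, and 3 with a pseudocount of 1 and with median-ratio scaling. A filter at 1 TPM tests fewer of these genes, and otherwise the cause was not tested.

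Leaving out 1 library at a time, the ranges were 3 to 5 for *Brd1*+/- against WT vehicle mice, 0 to 3 for *Brd1*+/- FLX against WT FLX mice (3 without WT FLX replicate 6) and 0 to 6 for FLX in WT mice (6 without WT vehicle replicate 1). They were 2 to 4 for IMN (4 without *Brd1*+/- IMN replicate 5) and 3 to 5 for FLX in *Brd1*+/- mice (5 without *Brd1*+/- FLX replicate 5), 0 to 2 for the IMN and 1 to 7 for the FLX interaction (7 without WT vehicle replicate 7). The counts for *Brd1*+/- IMN against WT IMN and for IMN in WT mice stayed at 0 throughout.

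The calls of *Mir6236*, of *Mir667* between vehicle groups, and of *Mir300*, *Mir494* and *Mir1957a* for FLX in *Brd1*+/- mice held under every setting and refit in which they were tested. Each refit without a library kept the genes tested in the full fit, so the filter was not applied again. *Mir667*, *Mir300*, *Mir494* and *Mir1957a*, and also *Mir1963* and *Mir376c* named below, met that filter only through the group where they were high. Their refits therefore cannot show that these calls are independent of the filter. The call of *Mir1963* was lost with a pseudocount of 0.01, a filter at 1 TPM, 1 fit and the block (adjusted p up to 0.107). Both calls of *Mir376c* were lost with a pseudocount of 1 and with the block (adjusted p up to 0.132). Replicate numbers did not pair the samples, since correlations of same-numbered deviations ran from −0.315 to 0.358 and at most 2 of 8 samples correlated best with their own number. TPM keeps no read counts, so the precision of values on such short genes is unknown.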
